A study of Mus musculus with 8 samples.

Results

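The oligonucleotide probes described here are those that the array's design names by a genomic interval instead of a gene. They were chosen by annotation alone, as the non-control probes whose systematic name is a chromosome, a start and an end in the mouse build mm9. They number 16194 of 55681 non-control probes (29.1%). Every probe was measured on 8 1-colour Agilent arrays of mouse hemogenic endothelium, the specialised endothelium that gives rise to blood cells in the embryo. All cells were of strain C57BL/6 and carried iRUNX1, a Tet-on construct through which doxycycline switches on Runx1, a transcription factor needed for that transition. Embryonic stem cells were differentiated as embryoid bodies for 3.25 days, selected with magnetic beads for the receptor Flk-1 before and after a further culture, and grown for 2 days in hemogenic endothelium medium. The uninduced group received no doxycycline (3 biological replicates) and the induced group received it overnight at 0.3 µl/ml, the unit the labels use (3 biological replicates).

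Each group also had 1 array titled as a technical repeat, which was kept apart. Both groups carry the construct, and cells given doxycycline without it were not analysed here, so effects of the drug and of Runx1 cannot be told apart. Beyond "control" and "Runx1 expression" the labels give no Runx1 genotype, and they do not say how many clones were used. Runx1 had 2 probes. The tested Runx1 probe was dim in both groups and differed by -1.03 log2 units (SE 0.32, limma adjusted p = 0.162). No source used here says whether the induced transcript holds its sequence, so it checks no label. In bulk RNA of this kind, fewer cells of a type and less RNA per cell cannot be told apart.

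Long noncoding RNAs are transcripts that are not translated into protein. Many are made at low levels, in few cell types, and some are transcribed opposite a second RNA from the same stretch of DNA. Those with known roles act in several ways, for example by recruiting chromatin regulators, by hosting small RNAs in their introns, or through the act of transcription itself. In imprinted clusters they are made mainly from 1 parental chromosome. Interval probes of this kind are placed on arrays to read such RNAs outside annotated genes. Here the probe names give a position and a letter, F or R, read as the forward or reverse strand. They give no gene and no exon, and whether an interval is intergenic was not checked, since no mm9 annotation was used.

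The 16194 probes carried 4610 distinct interval names, a name being a region together with a strand, over 3543 regions on 20 chromosomes. The median name had 3 probes and the fullest had 10. Region length ranged from 62 to 7128487 bases with a median of 7304, so a name often covers far more DNA than a probe reads. On the forward strand there were 8171 probes, on the reverse strand 8010, and 13 probes of 3 regions had no strand in the name. Both strands were covered in 1067 regions. Regions that overlapped by at least 1 base, whatever their strand, were joined into 2226 loci, of which 170 had a single probe and the fullest had 50. Probes of a locus share their target and are not independent measurements.

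A probe is well above background by a flag of the scanner software that is stricter than its flag for a positive and significant signal. The looser flag was carried by 71% of interval probes on average in the uninduced replicates and 75.8% in the induced ones. Interval probes were well above background less often than protein-coding gene probes in these libraries, and about as often as long noncoding RNA gene probes. In uninduced replicates 1, 2 and 3 the share of interval probes well above background was 52.4%, 48.8% and 38.5%. In the same-numbered induced replicates it was 60.8%, 48.2% and 47.2%, and in the technical repeats it was 47.6% uninduced and 51% induced. The highest share belonged to an induced array and the lowest to an uninduced one, and the groups overlapped. The means were 46.6% ± 7.24 and 52.1% ± 7.54 (SD, n = 3 each), a difference of 5.5 percentage points that was smaller than the spread between replicates (exact permutation test, two-sided, p = 0.6, the smallest possible being 0.1). Brightness differed between arrays as well. The processed signal's 75th percentile ran 699, 378 and 338 in uninduced replicates 1 to 3 and 973, 595 and 543 in the induced ones, and its part in detection was not tested. On the same 8 arrays 43% to 59.7% of RefSeq long noncoding RNA gene probes and 68.5% to 78.9% of RefSeq protein-coding gene probes reached that flag.

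Tests covered the probes that carried this flag in all 3 replicates of the uninduced group, of the induced group, or of both. This held for 7292 interval probes (45%), against 71.9% of the 25887 protein-coding gene probes and 46.3% of the 454 long noncoding RNA gene probes. Of the interval probes, 5798 (35.8%) were well above background on all 6 arrays and 5755 (35.5%) on none. The filter was met through the induced arrays alone by 1340 probes and through the uninduced arrays alone by 154. Detection on all 3 induced arrays and no uninduced one was seen for 71 probes, and the converse for 3. Probes that entered through 1 group lacked the flag on at least 1 array of the other, which does not require a lower mean there. The flag is set array by array, and uninduced replicate 3 carried it on the fewest interval probes (38.5%). These counts therefore do not measure induction. Of the 89 probes that rose in the test described next, 52 had entered through the induced arrays alone, and of the 91 that fell 15 had entered through the uninduced arrays alone.

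Levels below are log2 processed signals minus the array's 75th percentile, so 0 is that percentile and negative values are dimmer, and a difference is induced minus uninduced on that log2 scale. After doxycycline, 180 interval probes changed at an adjusted p under 0.05 (limma over all 32842 tested probes, Benjamini-Hochberg), which is 2.47% of those tested. Of these, 89 were higher (1.22%) and 91 lower (1.25%), and 165 differed by at least 2-fold (2.26%, against 3.35% of all probes). Over all probes of the array the share was 3.63% (2.25% higher and 1.38% lower), over protein-coding gene probes 4.65% and over long noncoding RNA gene probes 3.81%. The interval share thus lies below the background. No test of these shares was run. All 180 probes moved the same way in all 3 same-numbered pairs and had groups that did not overlap. Groups that do not overlap move all pairs 1 way, and the threshold favours such groups, so this largely restates the selection. Groups did not overlap for 18% of the 7286 interval probes measured on all 6 arrays, against 23.3% of all probes.

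The split by direction depended on the filter and on scaling. It was 37 higher and 76 lower among probes well above background on all 6 arrays. It was 115 higher and 63 lower with arrays centred on their medians, and 171 higher and 1 lower with arrays centred on 4 bright spike-in probes. The spike-in scaling moved every difference up by 1.12 on average (1.02, 0.75 and 1.60 in the 3 pairs, 1.12 ± 0.44, SD, n = 3, and 0.35 between the technical repeats). A fall smaller than that shift is a rise on the spike-in scale, which held for 21 of the 180 probes, and all directions below are relative to the 75th percentile. With the replicate number as a block, 451 interval probes passed (200 higher, 251 lower; 6.18%, against 8.82% of all probes). Within the slide row that held replicates 1 and 2 the count was 26 (0.771% of all probes passed), and the other row held only 1 replicate per group. With the slide row as a block the count was 189 (3.76% of all probes). Without uninduced replicate 2 the count was 37, without induced replicate 3 it was 73, without induced replicate 1 82, and without uninduced replicate 3 106. The share of all probes fell as well, to 1.13%, 1.62%, 1.94% and 2.03% in turn. Between the technical repeats, 172 of the 180 probes differed in the same direction and 8 in the opposite one. By their title the repeats may hold RNA of a tested replicate, so their agreement is not independent support. The induced repeat minus induced replicates 1 to 3 had SDs of 0.849, 1.01 and 0.868 over 7286 probes. For the uninduced repeat they were 0.557, 0.499 and 0.623.

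Over all 7292 tested interval probes the median difference was -0.12, and the middle 50% lay between -0.37 and 0.14. The same median was 0.00 over all tested probes and 0.07 over protein-coding gene probes. By pair, the interval median was 0.05, -0.15 and -0.23 in replicates 1, 2 and 3, and -0.22 between the technical repeats. Replicate 1 thus differed in sign from the other pairs, and the downward median is no larger than the spread between pairs.

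The 180 probes lay in 87 loci, 5.04% of the 1725 loci with a tested probe. Of these loci, 47 held higher probes, 40 held lower probes and 0 held both (2 of 217 with the replicate block). A single changed probe was found in 60 loci, 2 in 9 loci and 3 or more in 18 loci. The 18 loci contributed 102 of the 180 probes (56.7%), and the 11 with 5 or more contributed 80 (44.4%). Changed probes lay on the forward strand only in 43 loci, on the reverse strand only in 40 and on both in 4. Loci whose mean levels are given below were picked for their number of changed probes. Groups that lie apart in those means thus largely restate that selection.

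The block with the most changed probes was on chromosome 12, and all of them were lower. From chr12:110842149-110988678 (mm9), a span of 146530 bases, 3 loci separated by gaps of 2466 to 3849 bases held 64 interval probes. Of 48 tested there, 30 fell and 0 rose, 24 of them on the forward strand and 6 on the reverse, and 6 of the 30 had met the filter through the uninduced arrays alone. These 30 were most of the 34 lower interval probes of the whole chromosome. With spike-in scaling 0 forward probes of these 3 loci passed. The imprinted Dlk1-Dio3 cluster, whose maternally expressed noncoding RNAs include Meg3, Rian and Mirg, is also on mouse chromosome 12. No annotation in mm9 was used here, so which of these intervals belong to a named RNA was not checked.

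The first locus of the block, chr12:110842149-110891628 (49480 bases, 4 regions), had 12 forward-strand probes. Their mean level was -1.91, -1.45 and -2.24 in uninduced replicates 1 to 3 and -4.24, -3.44 and -4.36 in the induced replicates. Every induced array lay below every uninduced one, with a mean paired difference of -2.15 ± 0.17 (SD, n = 3) and -2.18 between the technical repeats. Of 8 tested forward probes, 7 fell, by -2.18 to -2.94 (limma adjusted p from 0.00911 to 0.0179). The largest fall of any interval probe was here, at A_30_P01032469, named for chr12:110842154-110883594. Its levels were 1.1, 1.11 and 0.61 uninduced and -2.41, -1.03 and -2.56 induced, a difference of -2.94 (SE 0.42, limma adjusted p = 0.0151). On the reverse strand 3 of 8 tested probes also fell, by -1.31 to -1.96. Without uninduced replicate 2, 0 of the 7 forward probes passed, and without induced replicate 1 or 3 the count was 3. The adjusted p of A_30_P01032469 was 0.0694, 0.0532 and 0.0531 without those arrays in turn.

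The second locus, chr12:110894095-110940553 (46459 bases, 3 regions), had 10 forward probes with mean levels of 0.42, -0.10 and -0.79 on the uninduced arrays and -2.21, -2.14 and -2.69 on the induced ones. The groups did not overlap, and the mean paired difference was -2.19 ± 0.39 (SD, n = 3). Of 9 tested forward probes 6 fell, and all 9 passed with the replicate block. At A_30_P01026799 (chr12:110894095-110899517) the levels were 3.76, 3.79 and 3.43 uninduced and 0.84, 1.75 and 0.94 induced. All 6 arrays were well above background there, and the difference of -2.48 (SE 0.27, limma adjusted p = 0.00714) kept its call without any 1 array. The 2 tested reverse-strand probes of this locus differed by only -0.19 and -0.18 and did not pass. The number of forward probes past the threshold was 2 without uninduced replicate 2 and 3 without induced replicate 2 or 3.

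The third locus, chr12:110944403-110988678 (44276 bases, 3 regions), had the most changed probes of any locus. Its 16 forward probes averaged -1.29, -1.36 and -1.84 on the uninduced arrays and -2.96, -2.81 and -3.16 on the induced ones, again with no overlap. The mean paired difference was -1.48 ± 0.18 (SD, n = 3) and -1.78 between the technical repeats. Of 15 tested forward probes 11 passed, 4 of which had met the filter through the uninduced arrays alone, with falls between -1.21 and -2.07 (limma adjusted p from 0.00911 to 0.0458). The largest was at A_30_P01026915 (chr12:110967974-110969051), with -3.61, -3.12 and -4.12 uninduced and -5.65, -5.40 and -6.00 induced. This probe was well above background on only 2 of 3 induced arrays, and it fell by 2.07 (SE 0.29, limma adjusted p = 0.0149), against a difference of -0.998 between the technical repeats. The forward count was 0 without uninduced replicate 2, 2, 3 and 5 without induced replicates 3, 1 and 2, and 6 without uninduced replicate 1. The adjusted p of A_30_P01026915 was 0.0506 without uninduced replicate 2, 0.0525 without induced replicate 1 and 0.0577 without induced replicate 3. Of the 3 reverse-strand probes that fell here, 2 went the other way between the technical repeats, at 0.86 (A_30_P01020302) and 0.74 (A_30_P01030641).

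Gene probes of the imprinted noncoding RNAs gave values to set beside this block. Meg3, a maternally expressed RNA, read 6.90, 6.40 and 5.73 on the uninduced arrays and 5.05, 4.48 and 4.68 on the induced ones. It fell by 1.61 (SE 0.32, limma adjusted p = 0.0452), and 2 of its 3 probes passed. Mirg, a microRNA-containing RNA of the same imprinted cluster, read 4.76, 4.58 and 3.96 uninduced and 2.69, 2.67 and 2.59 induced, and fell by 1.78 (SE 0.23, limma adjusted p = 0.0119). No probe was matched to Rian. In both genes every induced array lay below every uninduced one, and the technical repeats differed by -0.84 and -0.91, in the same direction.

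Outside chromosome 12, the loci with the most falling probes were on chromosomes 10 and X. Loci with 3 falls on a strand lay at chr13:12792150-12869825 (3 of 4 tested forward probes), chr6:129151512-129208737 (3 of 5 reverse) and chr9:96632664-96654148 (3 of 8 reverse). At chr10:83181374-83249918 (68545 bases) the 13 forward probes averaged -1.05, -1.09 and -1.15 on the uninduced arrays and -2.70, -2.22 and -2.03 on the induced ones. The uninduced arrays were close together and the induced ones were all lower, with a mean paired difference of -1.22 ± 0.40 (SD, n = 3) but only -0.60 between the technical repeats. Of 9 tested forward probes 8 fell, by -1.59 to -1.96 (limma adjusted p from 0.00651 to 0.0238), and 0 passed with spike-in scaling, while 0 of 8 tested reverse probes passed (2 with the replicate block). The probe with the largest fall, A_30_P01033328 (chr10:83185606-83225506), read 1.33, 1.20 and 1.30 uninduced and -1.20, -0.53 and -0.31 induced (difference -1.96, SE 0.25, limma adjusted p = 0.0108). The count was 1 without uninduced replicate 2, 2 without induced replicate 2, 3 without uninduced replicate 3 and 5 without uninduced replicate 1. The adjusted p of A_30_P01033328 was 0.0514 without uninduced replicate 2.

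At chrX:50400250-50410825 (10576 bases) the 9 reverse probes had means of 1.59, 1.84 and 1.73 on the uninduced arrays and 0.32, 0.35 and 0.14 on the induced ones. The groups lay far apart relative to their spread, with a mean paired difference of -1.45 ± 0.16 (SD, n = 3) and -1.56 between the technical repeats. All 9 tested reverse probes differed downward and 8 passed, with falls of 1.03 to 1.94 (limma adjusted p from 0.00443 to 0.0415). The smallest of these falls lie within the spike-in shift given above and are rises on that scale, where 0 of the 9 passed. The 7 tested forward probes differed by -0.49 to -1.28 and 0 passed, so the strands differed in calls but not in direction. A_30_P01032068 had the largest fall, from 4.89, 5.89 and 5.87 to 3.17, 4.21 and 3.45 (difference -1.94, SE 0.37, limma adjusted p = 0.0415). The count was 3 without uninduced replicate 2 or induced replicate 3, 4 without induced replicate 1 or uninduced replicate 3, and 5 without induced replicate 2. The adjusted p of A_30_P01032068 was 0.156, 0.142, 0.132 and 0.122 without the first 4 of these arrays.

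The largest fitted rises were on chromosome 3, at chr3:137734560-137752677 (18118 bases). Its 10 forward probes averaged -6.26, -6.87 and -6.08 on the uninduced arrays and -1.62, -3.88 and -4.08 on the induced ones. Replicate 1 of the induced group stood far above the other two. The uninduced means lie below the dimmest probes carrying the background flag on those arrays (-5.96, -5.45 and -4.72), so no size is given for the locus as a whole. All 6 tested forward probes met the filter through the induced arrays alone, so the filter itself favoured higher induced values. Of these, 5 passed (limma adjusted p from 0.0132 to 0.0267). In 4 of the 5 the flag was carried on 1 uninduced array, and their fitted differences were 3.97 to 5.70. The largest was at A_30_P01024709 (chr3:137742666-137744470), from -4.73, -6.31 and -6.12 to 1.69, -0.77 and -0.97 (difference 5.70, SE 0.77, limma adjusted p = 0.0132). The fifth, A_30_P01025862, was well above background on no uninduced array and was 7.56-fold higher in the induced group than a floor. That floor is, for each uninduced array, its dimmest probe carrying the flag, or the probe itself where that reads higher. Probes without the flag can read above the dimmest flagged probe, so such a fold is not a strict lower limit. No reverse-strand probe here was tested. The count was 0 without uninduced replicate 2, 1 without uninduced replicate 3 and 3 without uninduced replicate 1, and the adjusted p of A_30_P01024709 was 0.0593 without uninduced replicate 2.

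On chromosome 1, neighbouring loci held rising probes on the reverse strand. At chr1:175653557-175672031 (18475 bases) the 11 reverse probes averaged -5.93, -6.49 and -6.09 on the uninduced arrays and -3.13, -4.48 and -3.78 on the induced ones. All induced arrays were higher, but the means of uninduced replicates 2 and 3 lie below the dimmest flagged probes of those arrays. Of the 11 probes 6 were tested, and 5 of the 6 met the filter through the induced arrays alone. These 6 passed with fitted differences of 3.1 to 4.70 (limma adjusted p from 0.00714 to 0.0249), and the 5 forward probes were not tested for lack of signal. A_30_P01021597 (chr1:175654606-175672031) had the largest of these, from -4.83, -7.40 and -6.53 to -0.54, -2.34 and -1.77, with the flag on 1 uninduced array. Its difference of 4.70 (SE 0.72, limma adjusted p = 0.0185) had adjusted p of 0.0567, 0.0656, 0.0618 and 0.0609 without induced replicate 1 or 3 or uninduced replicate 2 or 3, and the count was 2 without uninduced replicate 2. The next locus, chr1:175705225-175717250, lies 33193 bases further on and had 2 of 2 tested reverse probes higher, with its 1 tested forward probe at -0.34. Its probe A_30_P01024163 rose from -1.85, -2.94 and -2.48 to 2.31, 0.63 and 1.31 (difference 3.84, SE 0.46, limma adjusted p = 0.00916), well above background on all 6 arrays. That call held without any 1 array.

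Chromosome 10 also held a short locus that rose, chr10:24269165-24277089 (7925 bases). Its 8 reverse probes averaged -5.40, -4.85 and -5.61 on the uninduced arrays and -3.65, -3.34 and -3.34 on the induced ones. No arrays overlapped between groups, which largely restates how the locus was picked. The mean of uninduced replicate 3 lies below the dimmest flagged probe of that array. Of 8 tested reverse probes 6 passed, and 5 of these 6 had met the filter through the induced arrays alone. In 4 of them at least 2 uninduced arrays were well above background, and the differences were 2.05 to 2.90. The 2 tested forward probes differed by -0.12 and 0.02 and did not pass. The probe with the largest difference, A_30_P01022053 (chr10:24269165-24276690), read -5.71, -4.41 and -6.82 uninduced and -2.92, -2.82 and -2.50 induced (difference 2.90, SE 0.55, limma adjusted p = 0.0402). The flag was carried on 2 uninduced arrays. It passed without uninduced replicate 2 only, with adjusted p between 0.0508 and 0.138 when another array was left out. Of the 6 that passed, the other 2 lacked the flag on every uninduced array. Against the floor defined above, A_30_P01019744 was 1.67-fold higher and A_30_P01029128 1.74-fold higher. With the replicate block the adjusted p of A_30_P01029128 was 0.0518.

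Smaller rises across several probes were seen on chromosomes 17 and 4. At chr17:3198868-3394643 (195776 bases) the 21 forward probes averaged -2.77, -2.68 and -2.97 on the uninduced arrays and -1.77, -2.23 and -2.25 on the induced ones, a mean paired difference of 0.72 ± 0.27 (SD, n = 3). Only 5 of 19 tested forward probes passed, with rises of 1.94 to 2.76 (limma adjusted p from 0.00557 to 0.0166), and 3 of the 5 shared the region chr17:3346621-3347209. The other tested probes reached down to -0.30, so the locus did not move as a whole. The count was 3 without uninduced replicate 2.

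At chr4:11893711-11936190 (42480 bases) the 8 forward probes averaged -4.39, -3.96 and -4.31 on the uninduced arrays and -2.79, -3.19 and -2.94 on the induced ones, with a mean paired difference of 1.25 ± 0.43 (SD, n = 3). All 8 differed upward by 1.08 to 1.67, and 5 passed (limma adjusted p from 0.0141 to 0.0344). The calls rested on all 6 arrays: the count was 0 without induced replicate 1 or 3, 1 without uninduced replicate 2, and 2 without uninduced replicate 1 or 3 or induced replicate 2.

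The remaining large rises are given as 1 probe per locus. A_30_P01031408, on the reverse strand of chr8:67552315-67561235, rose from -3.56, -1.44 and -1.72 to 2.69, 2.34 and 2.35 (difference 4.70, SE 0.53, limma adjusted p = 0.00752). The induced arrays lay close together, and the lowest uninduced value was that of replicate 1. Of 17 probes of its locus, chr8:67542714-67561694, 10 were not tested, and 6 of the 7 tested had met the filter through the induced arrays alone. A_30_P01031631, forward on chr8:85609155-85615170, rose from -5.33, -4.61 and -6.43 to -1.15, -1.19 and -2.25 (difference 3.93, SE 0.51, limma adjusted p = 0.0113), with 2 uninduced arrays well above background. The 1 tested probe on the other strand of that region differed by -1.90 and did not pass. A_30_P01023412, reverse on chr13:70815593-70820844, rose from -4.12, -3.67 and -3.44 to -0.24, -1.09 and -0.81 (difference 3.03, SE 0.28, limma adjusted p = 0.00464). It was alone among 21 tested probes of its locus. These 3 calls held without any 1 array.

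The other rises were at chromosomes 3, 9 and 4. A_30_P01029748, forward on chr3:85571525-85645700, rose from -4.49, -5.55 and -5.99 to -2.23, -2.61 and -2.31 (difference 2.96, SE 0.38, limma adjusted p = 0.011), with an adjusted p of 0.0546 without uninduced replicate 2, and carried the flag on 1 uninduced array. A_30_P01024289, reverse on chr9:67414463-67483185, read -8.06, -7.67 and -6.91 uninduced and -4.38, -4.24 and -4.91 induced (limma adjusted p = 0.00698). It carried the background flag on no uninduced array and was 1.83-fold higher than the floor defined above. A_30_P01027466, reverse on chr4:35106125-35127700, read -4.32, -3.72 and -3.53 uninduced and 0.07, -1.78 and 0.43 induced. Its difference of 3.43 (SE 0.57, limma adjusted p = 0.025) compares with only 0.51 between the technical repeats. It passed without induced replicate 2, while adjusted p was 0.089, 0.0748, 0.0686, 0.0902 and 0.0607 without induced replicates 1 and 3 and uninduced replicates 1, 2 and 3.

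Among the remaining falls, again 1 probe per locus, A_30_P01031510, reverse on the 393-base region chr13:56851404-56851796, went from -2.58, -3.68 and -3.63 to -5.56, -6.58 and -6.44. It fell by 2.89 (SE 0.39, limma adjusted p = 0.0134, and 0.0557 without induced replicate 3) and was well above background on 1 induced array. A_30_P01025361, reverse on chr3:30107995-30108595, read -4.57, -4.33 and -3.94 uninduced and -7.42, -6.44 and -6.58 induced (limma adjusted p = 0.00911). No induced array was well above background there, and the same kind of floor on those arrays was 3.11-fold below the uninduced mean. This was the only changed probe of that kind among the falls, against 20 rises with no uninduced array well above background. In the neighbouring region chr3:30032959-30079659, the reverse probe A_30_P01028353 went from -3.22, -2.78 and -1.74 to -5.67, -5.04 and -4.46. It fell by 2.48 (SE 0.45, limma adjusted p = 0.0343) but the technical repeats differed by only -0.78, and adjusted p was between 0.0576 and 0.107 without induced replicates 1, 2 or 3 or uninduced replicates 2 or 3.

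The last of the named falls were on chromosomes X and 11. A_30_P01025738, forward on the 1219-base region chrX:65756325-65757543, went from -2.44, -2.05 and -2.37 to -5.33, -3.95 and -4.15 (difference -2.19, SE 0.37, limma adjusted p = 0.0264). All 3 probes of that region were tested and 2 fell. The adjusted p of A_30_P01025738 was 0.0659, 0.0594, 0.109 and 0.0714 without induced replicate 3 and uninduced replicates 1, 2 and 3. A_30_P01025491, forward on chr11:119250824-119286324, went from -4.29, -4.39 and -3.80 to -6.39, -5.30 and -5.68 (difference -1.63, SE 0.31, limma adjusted p = 0.0403). It was well above background on 1 induced array. It passed without induced replicate 2 only, with adjusted p of 0.0771 to 0.12 when another array was left out. On the spike-in scale none of the 10 largest falls changed direction, but none passed, with adjusted p between 0.146 and 0.515.

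Regions covered on both strands allow the strands to be compared at the same DNA. Of the 1067 regions with probes on both strands, 696 had tested probes on each, and 66 held a changed probe. Changed probes were on the forward strand only in 30 and on the reverse strand only in 33, and both strands changed in 3. In 52 of the 63 with changes on 1 strand the other strand had a tested probe that did not pass. The 3 regions with changes on both strands, named here after their values were seen, all moved in 1 direction: chr12:110870903-110891628 and chr12:110944403-110988678 fell, and chr8:67542714-67561694 rose. In the main fit no region or locus had its strands changed in opposite directions. A strand that missed the threshold is not shown to differ from one that passed it, and that difference was not tested.

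The region on chromosome 8 had 4 tested forward probes, which met the filter through the induced arrays alone. Of these, A_30_P01020733 and A_30_P01018375 lacked the background flag on all uninduced arrays. They were 3.20-fold and 3.70-fold higher in the induced group than the floor defined above. Its 1 tested reverse probe, A_30_P01027562, read -8.12, -7.62 and -6.87 uninduced and -4.83, -4.80 and -5.22 induced. It lacked the background flag on all 3 uninduced arrays and was 1.34-fold higher than that floor (limma adjusted p = 0.0106). Of the forward probes, A_30_P01032100 rose from -4.60, -3.88 and -4.40 to -2.09, -1.51 and -1.68 (difference 2.54, SE 0.25, limma adjusted p = 0.00507), with 2 uninduced arrays well above background, and differed by 1.46 between the technical repeats.

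By strand alone the counts were alike. Of 3517 tested forward probes 42 rose and 54 fell (2.73%), and of 3770 tested reverse probes 47 rose and 37 fell (2.23%), both near the 2.47% of all interval probes. The 30 probes of the block on chromosome 12 make up 24 of the forward and 6 of the reverse falls. Of the 13 probes with no strand in their name, 8 had too little signal to test. The other 5, all named for chr17:12941161-12944859, differed by -0.91 to -1.05 and did not pass (limma adjusted p from 0.267 to 0.33), while all 5 passed with the replicate block (adjusted p from 0.0181 to 0.0333). Their groups overlapped: A_30_P01025039 read 1.88, 1.58 and 0.59 uninduced and 0.88, 0.33 and -0.29 induced.

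Probes sharing a name often disagreed. Of 1873 interval names with at least 2 tested probes, 57.9% had all of them on 1 side of 0. Of the 86 such names with a changed probe, 68 (79.1%) had all tested probes on 1 side of 0, and in 17 every tested probe passed. Within these 86 names the median range of differences was 1.06 log2 units, and the widest was 3.05. For 21 changed probes no second tested probe of the same name existed. Because a changed probe sets the sign of its own name in part, these counts describe agreement and do not test it.

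By chromosome the largest share of changed probes was on chromosome 12, with 10.2% of 344 tested probes (1 higher, 34 lower), followed by chromosome 10 with 6.46% (10 higher, 9 lower), chromosome 3 with 4.76% (15 higher, 3 lower) and X with 4.4% (1 higher, 11 lower). Chromosome 8 had 14 higher and 1 lower, and chromosome 1 had 12 higher and 5 lower. At the other end, 0 of 284 tested probes changed on chromosome 15 and 1 of 490 on chromosome 5; on each of these chromosomes 11 passed with the replicate block. Gene probes changed in 5.67% on chromosome 12, 4.64% on 10, 5.38% on 3 and 4.03% on X. On chromosomes 8, 1 and 15 they changed in 5.97%, 6.06% and 5.92%, against 2.98%, 3.42% and 0 of the interval probes, and on chromosome 5 in 2.66%. The high share on chromosome 12 lies in few loci: its 34 lower probes were in 7 loci, and 30 of them in the block described above. On chromosome 10, 8 of the 19 changed probes lay in 1 locus and 6 in another. The fullest locus held 8 of 12 on X, 7 of 15 on chromosome 8, 6 of 17 on chromosome 1 and 5 of 18 on chromosome 3.

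Changed loci also lay close together elsewhere. Joining changed loci with gaps of up to 100000 bases gave 6 further runs, each changing in 1 direction. These were chr1:175653557-175717250 (8 probes higher), chr8:40100925-40264250 (5 higher), chr10:62262341-62374346 (3 higher), chr13:12792150-12918645 (4 lower), chr9:96632664-96683617 (4 lower) and chr3:30032959-30133959 (3 lower). Whether the intervals of a run belong to 1 transcript is not given by the probe names.

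Named noncoding RNA genes were measured by their own probes. Of 61 listed genes, 29 had a probe matched through a RefSeq accession and 25 were tested. None rose, Meg3 and Mirg fell, and 23 did not pass (3.81% of long noncoding RNA gene probes passed, as given above), with a median difference of -0.30 over the 25. Malat1, an abundant nuclear RNA, differed by 0.06 (SE 0.46). Neat1, the scaffold of paraspeckles, differed by 0.86 (SE 0.23, limma adjusted p = 0.105, 0.0312 with the replicate block). Airn, an imprinted antisense RNA, differed by -1.12 (SE 0.44, limma adjusted p = 0.258, 0.0142 with the block) and Dnm3os, host of a microRNA cluster, by -2.12 (SE 0.60, limma adjusted p = 0.128, 0.00881 with the block). A gene that missed the threshold is not shown to be unchanged with 3 arrays a group.

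Markers of the cells in the culture were measured on the same arrays. All 12 hemogenic endothelium and endothelium markers were bright enough to test, and 2 of 12 fell, Eng and Sox17. Of 9 blood progenitor markers 5 rose (Spn, Myb, Gfi1, Ikzf1 and Itgb3), while Ptprc, Itga2b and Gfi1b differed by -0.19, 0.63 and 0.97 and did not pass. Spi1, which lacked the flag on all uninduced arrays, did not pass either. The summed level of the 9 went from between 2.11 and 2.71 on the uninduced arrays to between 5.78 and 5.90 on the induced ones. On the induced arrays Itgb3 carried most of that sum, with levels of 1.60, 1.62 and 0.88 uninduced and 5.65, 4.95 and 5.24 induced. Of the tested smooth muscle (4), red cell (5) and pluripotent cell (3) markers, 0 passed. Of 5 cardiac markers 1 fell, of 5 macrophage and mast cell markers 2 rose and 1 fell, and of 3 epithelial markers 1 rose. With the replicate block, Tek (limma adjusted p = 0.0138), Emcn (0.015), Tnnt2 (0.00604), Hbb-bh1 (0.011) and Hba-x (0.0459) also passed, all lower. Spi1 (0.0449) and Lyz2 (0.0134) passed with the block too, both higher. Thus 5 of the 9 blood progenitor markers passed in the main fit, and the part of the markers in the interval results was not tested.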

How the data were processed

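Total RNA (25 ng) was labelled with Cy3 and hybridised to 8 arrays of 1 slide, per the labels' protocols. The authors deposited Agilent Feature Extraction output (version 10.7.3.1 per the file headers, 10.7.1.1 and limma per the submitters' processing notes), from which the processed signal, an intensity on a linear scale, and 0/1 flags were used. A series table of log2 values, deposited by the authors, served only as an alternative: no source used here gives its normalization, and just 2 of its 8 columns matched the array in their name. Control spots and outlier-flagged spots were dropped. Each array's log2 processed signals were centred on their 75th percentile before replicate spots were averaged per probe. The 6 replicate arrays were fitted in limma 3.58.1 under R 4.3.3 (lmFit, eBayes, two-sided tests) over 32842 probes, and the script was tested on simulated data. Genes were named through RefSeq accessions. P-values measure the spread between the labelled replicates, whose separate origin rests on the labels.

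Same-numbered arrays deviated together from their group means (correlations of 0.611, 0.4 and 0.315 over 32796 probes). The highest correlations with another number were -0.268, -0.03 and 0.168. The labels do not say what a shared number means. The main fit and the detection test left the number out, and the replicate block took it in (451 interval probes in 217 loci). Replicates 1 and 2 lay in 1 row of the slide, and replicate 3 and the repeats in the other, with 1 scan time. Members and lists were chosen with earlier results of these data known. Probes named are the 10 largest rises and falls, 1 per locus and the same way in 3 pairs, the 10 loci with most changed probes on 1 strand, any locus with opposite changes (0 found), and listed noncoding RNA genes; members on chromosome 18 are counted but not named. Alternatives covered scaling, background correction, filters, blocks, outlier spots, thresholds, locus definition, the deposited table and leaving out each array. Precision is limited by the number of arrays.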

Additional observations from a re-analysis of the deposited data

How the results depend on the processing

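All 180 interval probes and 87 loci were recounted under each alternative. The number of changed probes was 49 with no filter on dim probes (25 loci) and 113 when all 6 arrays had to be well above background. It was 26 within array row 1 (15 loci, an alternative added after seeing the data), and 451 with the replicate block (217 loci). Over all probes tested in these settings 0.724%, 2.93%, 0.771% and 8.82% passed in turn, against 3.63% in the main fit. Of the 180, 179 still passed with the replicate block, and the exception was A_30_P01029128 (adjusted p = 0.0518 in limma). Loci numbered 56 after normexp and quantile normalization, and 41 when probes of a locus and strand were averaged first, which gives no probe count. Leaving out 1 array gave 37 to 145 interval probes and 20 to 75 loci, while 1.13% to 3.02% of all tested probes passed. Differences in detection were then 1.16 to 8.43 percentage points. Under median centring, quantile normalization, spike-in scaling, the slide row as a block, kept outlier spots and the deposited table as tracked, counts stayed within 1.5 times. Of the 180, 151, 154, 80, 154, 176 and 139 passed under these in turn, so with spike-in scaling most of the probes counted were others.

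With the deposited table's columns as named, 0 probes and 0 loci passed in limma (190 probes at an unadjusted p under 0.05), and 15 named probes reversed. The values were -1.05 for A_30_P01024709, -0.81 for A_30_P01021597 and A_30_P01027466, -0.61 for A_30_P01024163, -0.31 for A_30_P01024289, -0.47 for A_30_P01023412 and -0.56 for A_30_P01029748. They were 0.40 for A_30_P01032469, 0.13 for A_30_P01025361, 0.34 for A_30_P01026799, 0.48 for A_30_P01025738, 0.26 for A_30_P01026915, 0.16 for A_30_P01033328, 0.70 for A_30_P01032068 and 0.19 for A_30_P01025491. As named, the columns mix the groups. Those named for induced replicates 1 and 2 track uninduced arrays, and that named for uninduced replicate 3 tracks an induced one. The fit to columns as named thus gives no measure of how the results depend on processing. Read as the arrays they track, the columns gave 165 probes. For the other alternatives that changed counts, fewer probes or arrays enter some fits by construction, and the cause was otherwise not tested. Dim signal limits the rest, since 5755 interval probes were well above background on no array.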
